A study of Mus musculus with 6 samples.

Results

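The 10 genes described here are early-response genes in 4 sets by name: *Egr1*, *Egr2* and *Egr3*, *Nr4a1*, *Nr4a2* and *Nr4a3*, *Ier2*, *Ier3* and *Ier5*, and *Myc*. They were chosen by name, and every probe that the array annotation gave to one of these names was taken. This gave 10 of the 34787 gene names on the array, with 12 probes in 22 spots per array. *Nr4a2* and *Ier5* each had 2 probes, and each other gene had 1.

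The cells were bone marrow-derived macrophages (BMDMs) of female wild type mice of strain C57/B6, aged 6 to 8 weeks by the sample labels and cultured for 7 days in L929-conditioned medium. Untreated BMDMs, BMDMs given LPS for 4 h, and BMDMs given 10 μM of the USP7 inhibitor HBX41,108 for 30 min and then LPS for 4 h (LPS+USP7i) were each measured on 2 arrays. LPS is a component of the bacterial outer membrane that acts through TLR4, and USP7 is an enzyme that removes ubiquitin from proteins. By the text of the series, the replicates of a group came from separate experiments.

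Early-response genes are transcribed soon after a signal reaches the cell, and no new protein has to be made first. MAP kinases, SRF with its ETS partners, CREB and NF-κB carry such signals to their promoters. Many of the transcripts are short-lived, so the amount present hours after LPS can differ from the early peak.

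Levels are given on a log2 scale of quantile-normalized signal, on which a difference of 1 is 2-fold. A gene is said to have risen or fallen where its limma adjusted p was under 0.05, and for all other differences only values are given. Where a gene had more than 1 probe, calls were read from the brightest. The 3 comparisons share arrays, so their results are not independent of each other. The number of arrays, 2 per group, limits the precision of every value. Fewer cells of a type and less RNA per cell cannot be told apart in these data.

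LPS changed a large part of the measured transcripts. In LPS minus untreated, 7218 gene names passed (20.7%), 2775 higher (7.98%) and 4443 lower (12.8%). Among the 15612 names well above background on all 6 arrays, 14.1% were higher and 23.9% were lower. Of the 10 members, 1 rose (*Nr4a3*, with all signals near background) and 1 fell (*Egr2*). An unadjusted p under 0.05 was found for 6 members and 33.1% of all names, and for 4 of the 8 members well above background on all 6 arrays and 58.0% of the 15612 names. Both LPS arrays lay above both untreated arrays for 4 members and below for 3, against 31.0% and 29.9% of all names. Among those 8 members this was 3 above and 2 below, against 30.7% and 49.5% of the 15612 names.

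With the USP7 inhibitor added to LPS, 9 of the 10 members had a positive difference from LPS alone and 1 had a negative one. The median of the 10 was 1.14, against 0.00 for all names and 0.05 for the 15612 names. In LPS+USP7i minus LPS, 3404 names passed (9.79%), 1919 higher (5.52%) and 1485 lower (4.27%). Among the 15612 names the shares were 9.74% higher and 7.42% lower. Of the members, 1 rose (*Egr2*) and 1 fell (*Nr4a3*, near background). Unadjusted p was under 0.05 for 6 members and 26.0% of all names, and for 5 of the 8 measured members and 43.8% of the 15612 names. Both LPS+USP7i arrays lay above both LPS arrays for 7 members and below for 1, against 26.8% and 25.3% of all names. Among the 8 measured members this was 7 above and 0 below, against 37.5% and 29.6% of the 15612 names.

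Against untreated BMDMs, the cells given inhibitor and LPS had 8 members with a positive and 2 with a negative difference, with a median of 0.95. In LPS+USP7i minus untreated, 5175 names passed (14.9%), 2144 higher (6.16%) and 3031 lower (8.71%). Among the 15612 names the shares were 10.9% higher and 16.3% lower. Of the members, 2 rose (*Nr4a2* and *Ier3*) and 0 fell. The unadjusted limma p was under 0.05 for 6 members and 28.8% of all names, and for 5 of the 8 measured members and 49.5% of the 15612 names. Both LPS+USP7i arrays lay above both untreated arrays for 6 members and below for 1, against 28.9% and 29.4% of all names. Among the 8 measured members this was 5 above and 0 below, against 29.9% and 42.4% of the 15612 names.

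The way arrays are scaled to each other matters for both comparisons with untreated cells. With 75th percentile scaling the median of all probes moved to 0.51 in LPS minus untreated and to 0.55 in LPS+USP7i minus untreated, and stayed at 0.00 in LPS+USP7i minus LPS. Over probes well above background it moved less, from −0.15 to 0.09 and from −0.07 to 0.11 in the comparisons with untreated cells. In LPS minus untreated the split of higher and lower names was 12150 and 4048 with that scaling and 2775 and 4443 with quantile normalization. In LPS+USP7i minus untreated it was 12182 and 3354, against 2144 and 3031. No member's difference changed sign with that scaling.

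**Figure D1:**
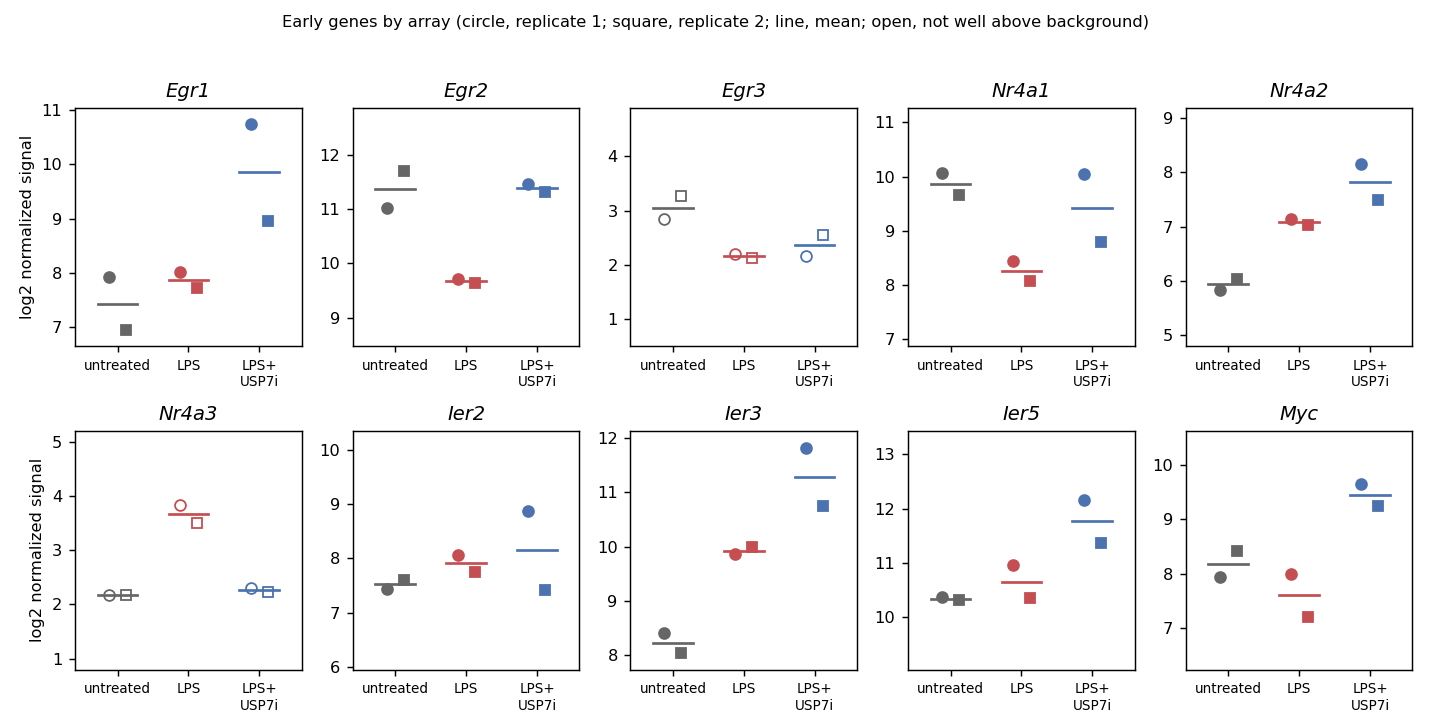
Levels of the 10 genes on each array, as log2 normalized signal, by group. Circles are replicate 1, squares are replicate 2, lines are group means, and open symbols are spots that were not well above background.

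*Egr2* encodes a zinc finger transcription factor that takes part in macrophage differentiation. Its level was 11.02 and 11.71 in untreated BMDMs, 9.71 and 9.63 after LPS, and 11.47 and 11.32 after LPS+USP7i. Both LPS arrays lay below all 4 others, and the untreated and LPS+USP7i arrays overlapped. *Egr2* fell with LPS by 1.69 (SE 0.26, 95% interval −2.40 to −0.99, 3.24-fold, adjusted p = 0.0221). It rose with the inhibitor by 1.73 (SE 0.26, 95% interval 1.02 to 2.43, 3.31-fold, adjusted p = 0.0372). With replicate number added to the fit as a block, that rise did not pass (limma adjusted p = 0.0678). The fall with LPS passed in that fit (0.0446). LPS+USP7i minus untreated was 0.03 (95% interval −0.67 to 0.74, adjusted p = 0.997).

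Both *Egr2* calls depended on which arrays were in the fit. The fall with LPS passed without untreated replicate 1 (adjusted p = 0.0225) or 2 (0.0359). It did not pass without LPS replicate 1 (adjusted p = 0.0971), LPS replicate 2 (0.0959), LPS+USP7i replicate 1 (0.0574) or LPS+USP7i replicate 2 (0.0574). Over all alternatives its adjusted p ran from 0.00233 to 0.0971 and its difference from −2.04 to −1.35. The rise with the inhibitor did not pass with any 1 of the 6 arrays left out: adjusted p = 0.136 without LPS replicate 1, 0.134 without LPS replicate 2, 0.137 without LPS+USP7i replicate 1, 0.0970 without LPS+USP7i replicate 2, and 0.0561 without untreated replicate 1 or 2. Without either untreated array 0 of all names passed limma in this comparison, with 8004 under 0.05 unadjusted, so those losses, here and for the genes below, were shared by every gene and single out none. Over all alternatives its adjusted p ran from 0.00422 to 0.137 and its difference from 1.61 to 1.80.

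The RefSeq promoter table gives *Egr2* 5 transcription starts, and 4 of them had a CArG box, the DNA element bound by SRF, in the 250 bases before and 50 after the start. The bases around both boxes are shown because, of the 6 members in the table, only *Egr2* had this element, and capitals mark the box. They are from RefSeq annotation of GRCm38.p6, plus strand. Each box lay 72 to 63 bases before 1 of the starts.
Egr2 chr10:67537484-67537513: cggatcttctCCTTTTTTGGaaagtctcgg
Egr2 chr10:67537787-67537816: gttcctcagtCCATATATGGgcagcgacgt

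*Egr1* encodes a related zinc finger factor that is induced by growth factor signaling. Its level was 7.92 and 6.95 in untreated BMDMs, 8.01 and 7.73 after LPS, and 10.75 and 8.96 for LPS+USP7i. Both LPS+USP7i arrays lay above the 4 others, and they were 1.78 apart. LPS minus untreated was 0.44 (SE 0.72, adjusted p = 0.820), and from −0.05 to 0.92 with 1 array left out. LPS+USP7i minus LPS was 1.98 (95% interval −0.01 to 3.98, 3.96-fold, adjusted p = 0.221), and over the arrays left out in turn it ran from 1.09 to 2.88. LPS+USP7i minus untreated was 2.42 (95% interval 0.43 to 4.41, 5.35-fold, adjusted p = 0.132), ran from 1.53 to 3.31 with 1 array left out, and passed in 4 of 17 alternatives (from 0.0348 to 0.400).

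*Egr3* encodes another zinc finger factor of the family. No array had it well above background (0 of 6), so no fold is given. Its signal was 2.84 and 3.27 untreated, 2.20 and 2.12 after LPS, and 2.17 and 2.56 after LPS+USP7i. The untreated arrays were the highest. The differences were −0.90 (adjusted p = 0.0661) for LPS minus untreated, 0.20 (0.671, from 0.01 to 0.40 with 1 array left out) for LPS+USP7i minus LPS and −0.69 (0.141) for LPS+USP7i minus untreated.

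NAB1 and NAB2 bind EGR proteins and restrain them. Of this list of 3 genes with *Egr4*, 1 rose and 0 fell with LPS, 0 rose and 1 fell with the inhibitor, and 1 rose and 1 fell in LPS+USP7i minus untreated. Of all names, 7.98% rose and 12.8% fell with LPS, 5.52% and 4.27% with the inhibitor, and 6.16% and 8.71% in LPS+USP7i minus untreated. The medians of the list, 0.64, −0.65 and −0.01, were the values of *Egr4* alone. *Egr4* was at background, with 2.29 and 2.31 untreated, 3.57 and 2.32 after LPS, and 2.31 and 2.27 after LPS+USP7i.

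*Nab1* was 10.54 and 10.65 untreated, 11.36 and 11.40 after LPS, and 11.17 and 11.46 after LPS+USP7i, with the untreated arrays lowest. It rose with LPS by 0.78 (SE 0.12, 1.72-fold, adjusted p = 0.0241), and LPS+USP7i minus LPS was −0.06 (adjusted p = 0.852). Against untreated cells it rose with LPS+USP7i by 0.72 (1.65-fold, adjusted p = 0.0369). The rise with LPS did not pass without LPS replicate 1 (0.0976), LPS replicate 2 (0.0982), untreated replicate 1 (0.114) or untreated replicate 2 (0.0972). The other rise did not pass without either LPS array (0.0918), LPS+USP7i replicate 2 (0.0564), untreated replicate 1 (0.158) or untreated replicate 2 (0.129).

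*Nab2* was 11.87 and 12.13 untreated, 11.68 and 11.76 after LPS, and 10.74 and 10.46 after LPS+USP7i, with both LPS+USP7i arrays lowest. With LPS the difference was −0.28 (adjusted p = 0.344). With the inhibitor it fell by 1.13 against LPS (SE 0.15, 2.18-fold, adjusted p = 0.0297) and by 1.40 against untreated (2.65-fold, adjusted p = 0.0136). The first fall did not pass without LPS replicate 1 (0.109), LPS replicate 2 (0.110), LPS+USP7i replicate 1 (0.0614), LPS+USP7i replicate 2 (0.0662) or either untreated array (0.0740). The other fall did not pass without untreated replicate 1 (0.0526) or 2 (0.0674).

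*Nr4a1* encodes an orphan nuclear receptor induced in macrophages by inflammatory signals. Its level was 10.07 and 9.66 in untreated BMDMs, 8.44 and 8.08 after LPS, and 10.04 and 8.80 after LPS+USP7i. Both LPS arrays were lowest, and the LPS+USP7i arrays overlapped the untreated ones. The difference with LPS was −1.60 (SE 0.48, 95% interval −2.93 to −0.27, 3.04-fold, adjusted p = 0.115). LPS+USP7i minus LPS was 1.16 (95% interval −0.17 to 2.49, 2.24-fold, adjusted p = 0.280), and LPS+USP7i minus untreated was −0.44 (adjusted p = 0.688). With 1 array left out these ran from 0.54 to 1.78 and from −1.07 to 0.18. With 6 alternatives the difference with LPS passed, at adjusted p = 0.0495 with 75th percentile scaling, 0.0311 with dim probes left out, 0.0261 with normexp correction, and 0.0423 with either or both LPS+USP7i arrays left out, in a range from 0.0261 to 0.351 over all alternatives.

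The promoter of *Nr4a1* had an EGR site 60 to 52 bases before the start on the opposite strand, and an NF-κB site that spanned the start. The 250 bases before the start are shown because TGACG, the core of the element bound by CREB, occurred in 4 places, all on the opposite strand. Capitals mark those matches and the EGR site. The bases are from RefSeq annotation of GRCm38.p6, plus strand.
Nr4a1 chr15:101266596-101266845: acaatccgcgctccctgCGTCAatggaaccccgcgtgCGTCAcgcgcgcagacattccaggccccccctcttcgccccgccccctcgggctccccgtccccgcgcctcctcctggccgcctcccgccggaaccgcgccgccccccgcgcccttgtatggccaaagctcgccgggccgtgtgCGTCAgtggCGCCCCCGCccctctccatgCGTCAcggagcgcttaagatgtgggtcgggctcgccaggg

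*Nr4a2* encodes an orphan nuclear receptor of the same family. Its brighter probe read 5.84 and 6.04 in untreated BMDMs, 7.13 and 7.03 after LPS, and 8.15 and 7.49 after LPS+USP7i. The 3 groups did not overlap, with untreated lowest and LPS+USP7i highest. LPS minus untreated was 1.15 (SE 0.25, 95% interval 0.46 to 1.84, 2.21-fold, adjusted p = 0.0537), and LPS+USP7i minus LPS was 0.73 (95% interval 0.04 to 1.42, 1.66-fold, adjusted p = 0.195). The difference with LPS passed in 7 of 17 alternatives (adjusted p from 0.0143 to 0.958) and the difference with the inhibitor in 1 of 17 (from 0.0474 to 0.902), and the latter ran from 0.40 to 1.06 with 1 array left out. It rose in LPS+USP7i minus untreated by 1.88 (SE 0.25, 95% interval 1.19 to 2.57, 3.68-fold, adjusted p = 0.0216).

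That rise passed without LPS+USP7i replicate 1 (adjusted p = 0.0277) or 2 (0.0260). It did not pass without either LPS array (0.0651), untreated replicate 1 (0.108) or untreated replicate 2 (0.0960), and over all alternatives its adjusted p ran from 0.00426 to 0.962. The dimmer probe of *Nr4a2*, 1062 bases toward the 3′ end, read 4.78 and 8.17 untreated, 5.38 and 5.83 after LPS, and 6.18 and 6.02 after LPS+USP7i. The untreated arrays were far apart and spanned all others. Its differences were −0.87 (SE 1.21, adjusted p = 0.758), 0.49 (0.902) and −0.38 (0.962) in the order of the comparisons above. Signs turned with 1 array: LPS minus untreated was −2.57 without untreated replicate 1 (adjusted p = 0.0367) and 0.83 without replicate 2 (0.195), and LPS+USP7i minus untreated was −2.07 (0.0629) and 1.32 (0.111). The mean of both probes gave an adjusted p = 0.561 for LPS+USP7i minus untreated.

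The promoter of *Nr4a2* had TGACG in 4 places, with 2 on each strand, and an EGR site 74 to 66 bases before the start on the same strand. The 250 bases before the start are shown because both kinds of match lie within them, and capitals mark the matches. The bases are from RefSeq annotation of GRCm38.p6, minus strand.
Nr4a2 chr2:57124004-57124253: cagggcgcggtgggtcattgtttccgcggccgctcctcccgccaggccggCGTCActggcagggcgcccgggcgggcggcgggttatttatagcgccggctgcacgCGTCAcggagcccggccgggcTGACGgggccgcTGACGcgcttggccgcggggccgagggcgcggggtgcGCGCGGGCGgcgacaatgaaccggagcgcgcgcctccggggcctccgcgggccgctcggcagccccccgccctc

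*Nr4a3* encodes the remaining receptor of that family. No array had its probe, with 10 spots each, well above background (0 of 6), so no fold is given. It read 2.17 and 2.17 untreated, 3.83 and 3.50 after LPS, and 2.30 and 2.23 after LPS+USP7i. Both LPS arrays were highest. The signal passed the threshold in both directions, at 1.50 (SE 0.13, 95% interval 1.14 to 1.85, adjusted p = 0.00676) for LPS minus untreated and −1.40 (SE 0.13, 95% interval −1.76 to −1.05, adjusted p = 0.0178) for LPS+USP7i minus LPS. All of these signals were near background, so the size of any change in the transcript was not measured. LPS+USP7i minus untreated was 0.09 (adjusted p = 0.779). It was 0.72 with 75th percentile scaling (adjusted p = 0.0270), in a range from 0.0270 to 0.977 over all alternatives.

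The higher *Nr4a3* signal with LPS passed with any 1 array left out (adjusted p from 0.0175 to 0.0499) and did not pass with normexp correction, at a difference of 0.31 and adjusted p = 0.0541. The lower signal with the inhibitor passed without LPS replicate 1 (0.0286) or 2 (0.0360). It did not pass without LPS+USP7i replicate 1 (0.0625), LPS+USP7i replicate 2 (0.0518) or either untreated array (0.0682). With the deposited values it was −1.01 (0.0509) and with normexp correction −0.31 (0.0696), in a range of adjusted p from 0.0142 to 0.0696 over all alternatives.

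RXR proteins pair with NR4A1 and NR4A2 on DNA. Of the 3 RXR genes, 0 rose and 1 fell with LPS, 0 rose and 0 fell with the inhibitor by limma adjusted p, and 0 rose and 1 fell in LPS+USP7i minus untreated. The shares of all names that rose and fell were 7.98% and 12.8%, 5.52% and 4.27%, and 6.16% and 8.71% in that order. The medians of the 3 RXR genes were −0.67, 0.42 and −0.16. *Rxra*, well above background on 4 arrays, read 5.29 and 5.21 untreated, 4.74 and 4.41 after LPS, and 5.34 and 5.54 after LPS+USP7i. Both LPS arrays were lowest, with differences of −0.67 (adjusted p = 0.0576), 0.86 (0.0517) and 0.19 (0.567).

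*Rxrb* was 13.69 and 13.65 untreated, 12.11 and 12.08 after LPS, and 12.69 and 12.35 after LPS+USP7i. The groups did not overlap, and LPS was lowest. It fell with LPS by 1.57 (SE 0.13, 2.98-fold, adjusted p = 0.00635), and LPS+USP7i minus LPS was 0.42 (adjusted p = 0.159). In LPS+USP7i minus untreated it fell by 1.15 (2.22-fold, adjusted p = 0.0157), which did not pass without either LPS array (0.0513), untreated replicate 1 (0.0850) or untreated replicate 2 (0.0852). *Rxrg* read 11.32 and 11.05, 11.35 and 10.93, and 11.27 and 10.79 in the same order of groups, all overlapping, with differences of −0.05 (0.975), −0.11 (0.894) and −0.16 (0.822).

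*Ier3* encodes a small stress-induced protein that affects cell survival. Its level was 8.41 and 8.04 in untreated BMDMs, 9.86 and 10.00 after LPS, and 11.82 and 10.74 after LPS+USP7i. The 3 groups did not overlap, and untreated was lowest. With LPS the difference was 1.70 (SE 0.41, 95% interval 0.58 to 2.82, 3.25-fold, adjusted p = 0.0671), and LPS+USP7i minus LPS was 1.36 (95% interval 0.23 to 2.48, 2.56-fold, adjusted p = 0.151). Over the 17 alternatives the difference with LPS passed in 8 (adjusted p from 0.0157 to 0.250) and the difference with the inhibitor in 3 (from 0.0343 to 0.360), and the latter ran from 0.82 to 1.89 with 1 array left out. Against untreated cells LPS+USP7i raised it by 3.06 (SE 0.41, 95% interval 1.93 to 4.18, 8.32-fold, adjusted p = 0.0216).

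That rise of *Ier3* passed without LPS+USP7i replicate 1 (adjusted p = 0.0278) or 2 (0.0260). It did not pass without either LPS array (0.0658), untreated replicate 1 (0.0904) or untreated replicate 2 (0.109), and over all alternatives its adjusted p ran from 0.00165 to 0.109. The promoter of *Ier3* had an NF-κB site 92 to 83 bases before the start on the opposite strand. The 250 bases before the start are shown for this site, which capitals mark, from RefSeq annotation of GRCm38.p6, plus strand.
Ier3 chr17:35821463-35821712: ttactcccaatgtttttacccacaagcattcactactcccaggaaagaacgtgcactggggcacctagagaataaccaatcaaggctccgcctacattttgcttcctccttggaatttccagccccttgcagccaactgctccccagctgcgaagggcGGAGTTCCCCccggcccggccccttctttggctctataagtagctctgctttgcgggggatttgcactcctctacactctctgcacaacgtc

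*Ier5* encodes a protein that acts on heat shock factor 1. Its brighter probe read 10.37 and 10.31 in untreated BMDMs, 10.95 and 10.35 after LPS, and 12.16 and 11.38 after LPS+USP7i. Both LPS+USP7i arrays were highest. LPS minus untreated was 0.32 (SE 0.35, adjusted p = 0.671), LPS+USP7i minus LPS 1.11 (95% interval 0.14 to 2.08, 2.16-fold, adjusted p = 0.167), and LPS+USP7i minus untreated 1.43 (95% interval 0.46 to 2.40, 2.69-fold, adjusted p = 0.0859). The last passed as a rise in 4 of 17 alternatives, and in 1 more, the other probe, it passed as a fall. Its adjusted p ran from 0.0161 to 0.710. The difference with the inhibitor passed in 1 of 17 (from 0.0465 to 0.843). With 1 array left out, LPS minus untreated ran from 0.01 to 0.62 and LPS+USP7i minus LPS from 0.72 to 1.50.

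The dimmer probe of *Ier5*, 2235 bases toward the 3′ end, gave other directions against untreated cells. It read 8.89 and 8.80 untreated, 7.85 and 7.60 after LPS, and 7.92 and 7.68 after LPS+USP7i, with the untreated arrays highest. By this probe the signal fell with LPS by 1.12 (SE 0.13, 95% interval −1.48 to −0.75, 2.17-fold, adjusted p = 0.0131) and in LPS+USP7i minus untreated by 1.04 (2.06-fold, adjusted p = 0.0200), while LPS+USP7i minus LPS was 0.07 (adjusted p = 0.843). The fall with LPS did not pass without untreated replicate 1 (0.0748) or 2 (0.0704). The other fall did not pass without LPS+USP7i replicate 2 (0.0633), untreated replicate 1 (0.102) or untreated replicate 2 (0.0945). Which transcripts each probe detects was not tested.

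**Figure D2:**
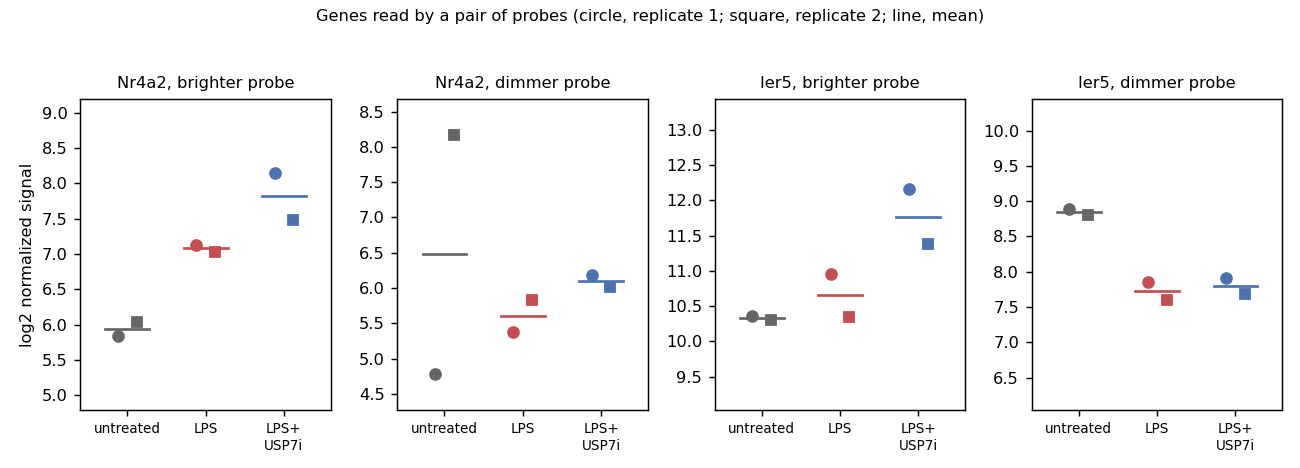
Levels of the brighter and dimmer probes of *Nr4a2* and *Ier5* on each array, as log2 normalized signal, by group. Circles are replicate 1, squares are replicate 2, and lines are group means.

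*Ier2* encodes a nuclear protein induced by growth factors. Its level was 7.44 and 7.59 in untreated BMDMs, 8.06 and 7.75 after LPS, and 8.87 and 7.42 after LPS+USP7i. The LPS+USP7i arrays spanned all others. The differences were 0.39 (SE 0.53, adjusted p = 0.746), 0.24 (0.885) and 0.63 (0.581). With 1 array left out they ran from 0.24 to 0.55, from −0.49 to 0.96 and from −0.09 to 1.35.

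*Myc* encodes a transcription factor of cell growth. Its level was 7.93 and 8.42 in untreated BMDMs, 8.00 and 7.21 after LPS, and 9.65 and 9.24 after LPS+USP7i. Both LPS+USP7i arrays were highest, and the untreated and LPS arrays overlapped. LPS minus untreated was −0.57 (SE 0.36, adjusted p = 0.448), and from −0.97 to −0.17 with 1 array left out. LPS+USP7i minus LPS was 1.84 (SE 0.36, 95% interval 0.84 to 2.84, 3.58-fold, adjusted p = 0.0643), and LPS+USP7i minus untreated was 1.27 (95% interval 0.27 to 2.26, 2.41-fold, adjusted p = 0.119), which passed in 3 of 17 alternatives (from 0.0318 to 0.363). The difference with the inhibitor passed with the deposited values (adjusted p = 0.0340), dim probes left out (0.0151), normexp correction (0.0112) and a trended prior (0.0469), in a range from 0.0112 to 0.207 with differences from 1.44 to 2.23.

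**Figure D3:**
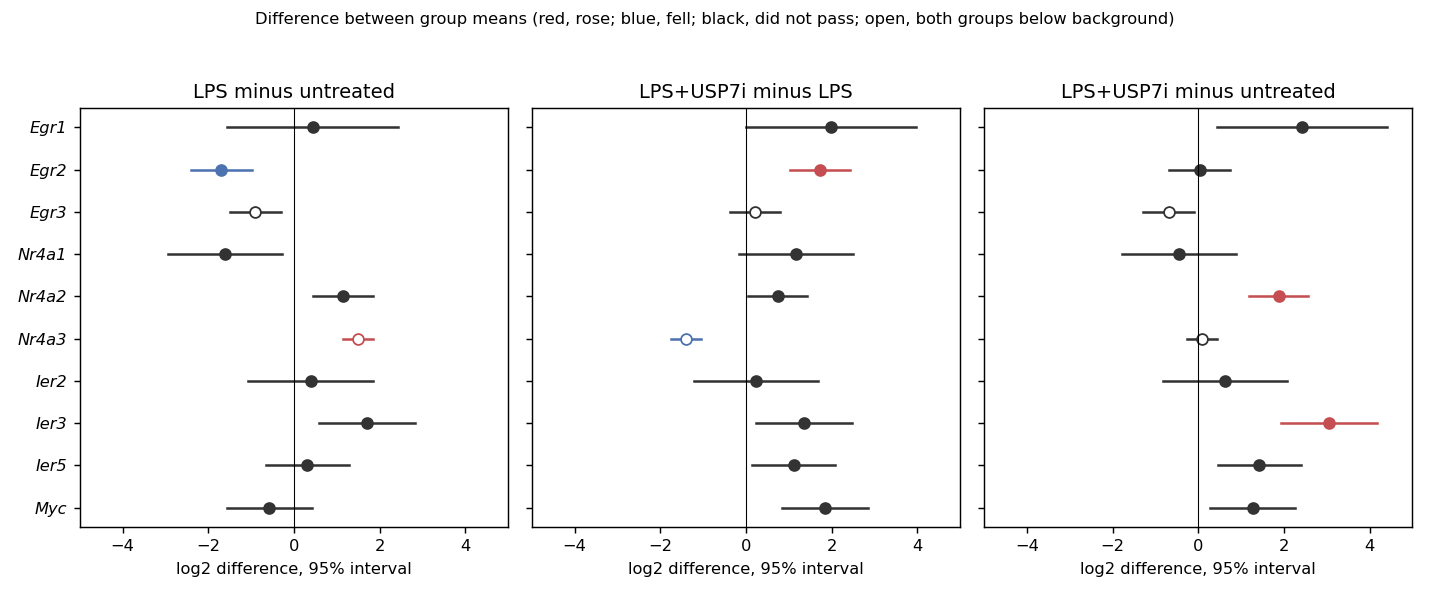
Differences of the 10 genes between groups in log2, with 95% intervals from the fit of all arrays, for each of the 3 comparisons. Each point is the difference of the means of 2 and 2 arrays.

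The promoter search covered 32851 windows of 300 bases on both strands, and 6 of the 10 members had an entry, with 10 starts. *Egr1*, *Egr3*, *Ier2* and *Myc* had no entry. Of all windows, 1.63% had a CArG box, 1.79% had TGACGTCA, which no member had, 20.8% had TGACG, 5.55% had the EGR site GCGNGGGCG, 4.51% had an NF-κB site and 7.15% had the E-box CACGTG. Of the 10 starts, 6 had TGACG, in *Egr2*, *Nr4a1*, *Nr4a2* and *Nr4a3*, and 1 start of *Egr2* had CACGTG. The window of *Ier5* had none of these letters. A match describes letters in a window, and binding was not tested.

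The LPS+USP7i replicates lay apart in the same direction for the members. Of the 8 measured members, replicate 1 was higher than replicate 2 for 4 among untreated arrays, 7 after LPS and 8 after LPS+USP7i. The median gap was −0.05, 0.30 and 0.93, and with LPS+USP7i it ran from 0.15 for *Egr2* to 1.78 for *Egr1*. Among the 15612 names replicate 1 was higher for 51.0%, 48.6% and 48.8%, with median gaps of 0.01, −0.01 and −0.01.

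MYC acts with MAX, and the other members of its network compete for MAX or act with MLX. Of the 12 network genes, 8 were well above background on all arrays and 2 on none. With LPS 3 rose and 3 fell, with the inhibitor 1 rose and 2 fell, and in LPS+USP7i minus untreated 1 rose and 3 fell. The medians were 0.00, −0.18 and 0.02. Among the 15612 names, 14.1% rose and 23.9% fell with LPS, and 9.74% rose and 7.42% fell with the inhibitor. In LPS+USP7i minus untreated, 10.9% of them rose and 16.3% fell. Over all names, dim ones included, the shares in the same order were 7.98% and 12.8%, 5.52% and 4.27%, and 6.16% and 8.71%. Both sets of shares stand beside the counts of each list below as well, since most lists also hold dim genes. An "at least" fold sets the dim group, on each array, at its own signal or at the lowest signal among probes well above background, whichever is higher.

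*Mycl* was 2.24 and 2.34 untreated, 8.91 and 8.47 after LPS, and 3.73 and 5.29 after LPS+USP7i. *Mnt* was 13.59 and 13.53, 9.42 and 9.14, and 11.87 and 11.14, *Mxd1* was 9.33 and 9.30, 12.80 and 12.72, and 11.74 and 12.29, and *Max* was 12.58 and 12.55, 13.77 and 13.48, and 12.63 and 12.61. LPS was highest for *Mycl*, *Mxd1* and *Max* and lowest for *Mnt*, without overlap. With LPS *Mycl* rose by 6.40 (at least 27.5-fold, adjusted p = 0.00726), *Mxd1* by 3.44 (10.9-fold, 0.00401) and *Max* by 1.06 (2.08-fold, 0.0108). *Mnt* fell by 4.28 (19.4-fold, adjusted p = 0.00458), *Mxd3* fell by 2.71 (at least 3.59-fold, 0.00995) and *Mxd4* by 0.68 (1.60-fold, 0.0159). With the inhibitor *Mnt* rose by 2.22 (4.66-fold, adjusted p = 0.0286), and *Mycl* fell by 4.18 (0.0326) and *Max* by 1.0 (2.0-fold, 0.0248). No fold is given for this *Mycl* result, since LPS+USP7i replicate 1 was not well above background, and the difference was −3.40 (adjusted p = 0.0346) without that array and −4.96 (0.0241) without LPS+USP7i replicate 2.

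Several of these network results did not pass with an array left out. For LPS minus untreated these were *Mxd3* (adjusted p = 0.0540) and *Mxd4* (0.0702) without LPS replicate 1, *Mxd4* (0.0505) without LPS replicate 2, *Max* (0.0620) and *Mxd4* (0.0861) without untreated replicate 1, and *Mycl* (0.0518), *Max* (0.0689) and *Mxd4* (0.0827) without untreated replicate 2. For LPS+USP7i minus LPS they were *Mnt* (0.0984) and *Mycl* (0.132) without LPS replicate 1, *Mnt* (0.107) and *Mycl* (0.106) without LPS replicate 2, *Max* without LPS+USP7i replicate 1 (0.0893) or 2 (0.0710), and *Mnt* (0.0905), *Mycl* (0.0991) and *Max* (0.0823) without either untreated array.

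Genes that MYC is known to raise, mostly for ribosome production and growth, moved in both directions. Of 25 such genes, 24 were well above background on all arrays. With LPS 6 rose and 4 fell, with the inhibitor 7 rose and 2 fell, and in LPS+USP7i minus untreated 8 rose and 1 fell, with medians of −0.02, 0.16 and 0.34. *Odc1* was 10.14 and 10.35 untreated, 11.62 and 11.58 after LPS, and 13.59 and 13.25 after LPS+USP7i, and *Ccnd2* was 8.53 and 8.49, 13.40 and 13.21, and 10.02 and 10.07. Neither overlapped between groups.

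With LPS *Ccnd2* rose by 4.79 (27.7-fold, adjusted p = 0.00184), *Rrs1* by 1.74 (3.35-fold, 0.00269) and *Odc1* by 1.35 (2.56-fold, 0.0116). *Cdk4* fell by 1.0 (2.0-fold, adjusted p = 0.0107), *Npm1* by 0.65 (1.57-fold, 0.0333) and *Hspd1* by 0.62 (1.54-fold, 0.0116). With 75th percentile scaling *Npm1* was −0.04 and *Hspd1* −0.16, and neither passed. With the inhibitor *Odc1* rose by 1.82 (3.54-fold, adjusted p = 0.0162), *Gnl3* by 1.64 (3.11-fold, 0.0150) and *Ppan* by 1.23 (2.35-fold, 0.0228), and *Ccnd2* fell by 3.26 (9.57-fold, 0.00987) and *Rrs1* by 0.39 (1.31-fold, 0.0434). For LPS minus untreated, those that did not pass were *Odc1* (0.0650), *Cdk4* (0.0586), *Npm1* (0.0903) and *Hspd1* (0.0556) without LPS replicate 1, *Odc1* (0.0569) without LPS replicate 2, and *Npm1* (0.0758) without LPS+USP7i replicate 1 or 2. Without untreated replicate 1 they were *Odc1* (0.0616), *Cdk4* (0.0505) and *Npm1* (0.0906), and without untreated replicate 2 *Odc1* (0.0534), *Cdk4* (0.0640), *Npm1* (0.142) and *Hspd1* (0.0614). For LPS+USP7i minus LPS they were *Odc1* (0.0658), *Gnl3* (0.0565), *Ppan* (0.0582) and *Rrs1* (0.136) without LPS replicate 1, and *Odc1* (0.0640), *Gnl3* (0.0511), *Ppan* (0.0707) and *Rrs1* (0.106) without LPS replicate 2. Without LPS+USP7i replicate 1 they were *Ppan* (0.0695) and *Rrs1* (0.117), without replicate 2 *Rrs1* (0.0722), and without either untreated array *Odc1* (0.0622), *Gnl3* (0.0622), *Ppan* (0.0766), *Ccnd2* (0.0561) and *Rrs1* (0.112).

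SRF, the ETS proteins beside it, its MRTF partners and the CREB proteins drive many early genes. Of these 10 regulators, all 10 well above background on all arrays, 2 rose and 4 fell with LPS, 2 rose and 0 fell with the inhibitor by limma adjusted p, and 4 rose and 2 fell in LPS+USP7i minus untreated. The medians were −0.18, 0.36 and 0.38. With LPS *Creb1* rose by 1.58 (3.0-fold, adjusted p = 0.00572) and *Crtc2* by 1.02 (2.03-fold, 0.00598). *Mrtfa* fell by 1.92 (3.79-fold, adjusted p = 0.00465), *Mrtfb* by 1.84 (3.59-fold, 0.00494) and *Elk3* by 0.90 (1.87-fold, 0.00962). These passed with any 1 array left out, and the other probe of the gene gave −1.12 for *Creb1* (0.362), 1.47 for *Mrtfb* (0.0276), 0.03 for *Elk3* (0.985) and 1.23 for *Crtc2* (0.0622). Over all alternatives the adjusted p ran from 0.000273 to 0.765, from 0.000189 to 0.0388, from 0.000937 to 0.985 and from 0.000407 to 0.0622 for these 4 genes.

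With the inhibitor *Mrtfb* rose by 1.51 (2.85-fold, adjusted p = 0.0165), while its other probe gave 0.10 (0.908), in a range from 0.00104 to 0.908 over all alternatives. *Atf1* rose by 1.22 (2.33-fold, adjusted p = 0.0126). *Mrtfb* did not pass without LPS replicate 1 (0.0670), LPS replicate 2 (0.0642) or either untreated array (0.0568), and *Atf1* did not pass without either untreated array (0.0563).

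The MAP kinase cascade and the DUSP, SPRY and SPRED proteins that limit it make up a list of 17 genes, 13 of them well above background on all arrays. With LPS 5 rose and 4 fell, with the inhibitor 4 rose and 0 fell by limma adjusted p, and in LPS+USP7i minus untreated 5 rose and 2 fell. The medians were 0.11, 0.04 and 0.32. *Dusp6* was 11.12 and 11.13 untreated, 9.25 and 9.50 after LPS, and 10.46 and 10.18 after LPS+USP7i, with no overlap and LPS lowest. *Dusp5*, well above background on 3 arrays, was 3.87 and 4.28, 5.51 and 4.74, and 8.01 and 7.12, with LPS+USP7i highest.

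With LPS *Map3k8* rose by 2.72 (6.57-fold, adjusted p = 0.00426), *Spred1* by 2.08 (4.22-fold, 0.0190) and *Rps6ka3* by 1.18 (2.26-fold, 0.00875). The other probe of *Rps6ka3* gave 0.26 (adjusted p = 0.476), in a range from 0.00116 to 0.476 over all alternatives. *Rps6ka1* fell by 1.82 (3.54-fold, adjusted p = 0.00249) and *Dusp6* by 1.75 (3.37-fold, 0.00629). With the inhibitor *Dusp4* rose by 1.96 (3.90-fold, adjusted p = 0.0167) and *Dusp6* by 0.95 (1.93-fold, 0.0389). *Dusp6* did not pass with the deposited values (0.0598) or with a replicate block (0.0758). For LPS minus untreated, those that did not pass were *Spred1* (0.0796) and *Rps6ka3* (0.0517) without LPS replicate 1, and *Spred1* without LPS replicate 2 (0.0871), untreated replicate 1 (0.0976) or untreated replicate 2 (0.0880). For LPS+USP7i minus LPS they were *Dusp4* (0.0690) and *Dusp6* (0.124) without LPS replicate 1, *Dusp4* (0.0665) and *Dusp6* (0.0824) without LPS replicate 2, *Dusp6* without LPS+USP7i replicate 1 (0.101) or 2 (0.0516), and *Dusp4* (0.0623) and *Dusp6* (0.110) without either untreated array.

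Other early genes include those of AP-1. Of 24 such genes, 23 were well above background on all arrays. With LPS 8 rose and 3 fell, with the inhibitor 7 rose and 3 fell, and in LPS+USP7i minus untreated 12 rose and 2 fell, with medians of 0.26, 0.50 and 1.30. The shares of the 15612 names in the same order were 14.1% and 23.9%, 9.74% and 7.42%, and 10.9% and 16.3%. *Fos* was 11.09 and 10.98 untreated, 9.54 and 9.38 after LPS, and 10.74 and 10.33 after LPS+USP7i, and *Jun* was 13.95 and 14.04, 12.27 and 12.25, and 14.54 and 13.27. *Fosb* was 6.80 and 6.75, 6.95 and 6.68, and 10.04 and 8.19, *Fosl1* was 3.39 and 3.71, 4.64 and 4.32, and 10.76 and 10.19, and *Ier5l* was 11.16 and 11.44, 7.73 and 8.04, and 11.89 and 10.14. LPS was lowest without overlap for *Fos*, *Jun* and *Ier5l*, and LPS+USP7i was highest without overlap for *Fosb* and *Fosl1*.

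With LPS *Dusp2* rose by 5.53 (46.2-fold, adjusted p = 0.00227), *Maff* by 4.26 (19.2-fold, 0.00395) and *Csrnp1* by 3.74 (13.4-fold, 0.00299). *Ier5l* fell by 3.42 (11-fold, adjusted p = 0.0364), *Fos* by 1.58 (2.99-fold, 0.00998) and *Mcl1* by 1.56 (2.95-fold, 0.00517). The other probe of *Mcl1* gave −0.32 (adjusted p = 0.0835), in a range from 0.000392 to 0.0835 over all alternatives. With the inhibitor *Fosl1*, which encodes an AP-1 subunit, rose by 6.00 (at least 59.3-fold, adjusted p = 0.0104), *Plk3* by 3.07 (8.41-fold, 0.0410) and *Dusp1* by 2.36 (5.12-fold, 0.0212). The LPS+USP7i arrays read 10.76 and 9.46 for *Plk3*, and its difference was 2.42 without replicate 1 of that group and 3.72 without replicate 2. *Dusp2* fell by 2.60 (6.08-fold, adjusted p = 0.0106), *Btg2* by 1.28 (2.43-fold, 0.0452) and *Gadd45b* by 0.56 (1.48-fold, 0.0360). For *Jun* LPS minus untreated was −1.74 (0.0820) and LPS+USP7i minus LPS 1.64 (0.127), and for *Ier5l* the latter was 3.13 (0.0685). For LPS minus untreated, those that did not pass were *Ier5l* (0.150) without LPS replicate 1, *Ier5l* (0.122) and *Fos* (0.0524) without LPS replicate 2, *Ier5l* (0.134) and *Fos* (0.0613) without untreated replicate 1, and *Ier5l* (0.159) and *Fos* (0.0594) without untreated replicate 2. For LPS+USP7i minus LPS they were *Plk3* (0.153), *Dusp1* (0.0878), *Btg2* (0.165) and *Gadd45b* (0.123) without LPS replicate 1, and *Plk3* (0.141), *Dusp1* (0.0832), *Btg2* (0.144) and *Gadd45b* (0.119) without LPS replicate 2. They were *Gadd45b* without LPS+USP7i replicate 1 (0.115) or 2 (0.0927), and *Fosl1* (0.0561), *Plk3* (0.109), *Dusp1* (0.0698), *Dusp2* (0.0561), *Btg2* (0.122) and *Gadd45b* (0.0697) without either untreated array.

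**Figure D4:**
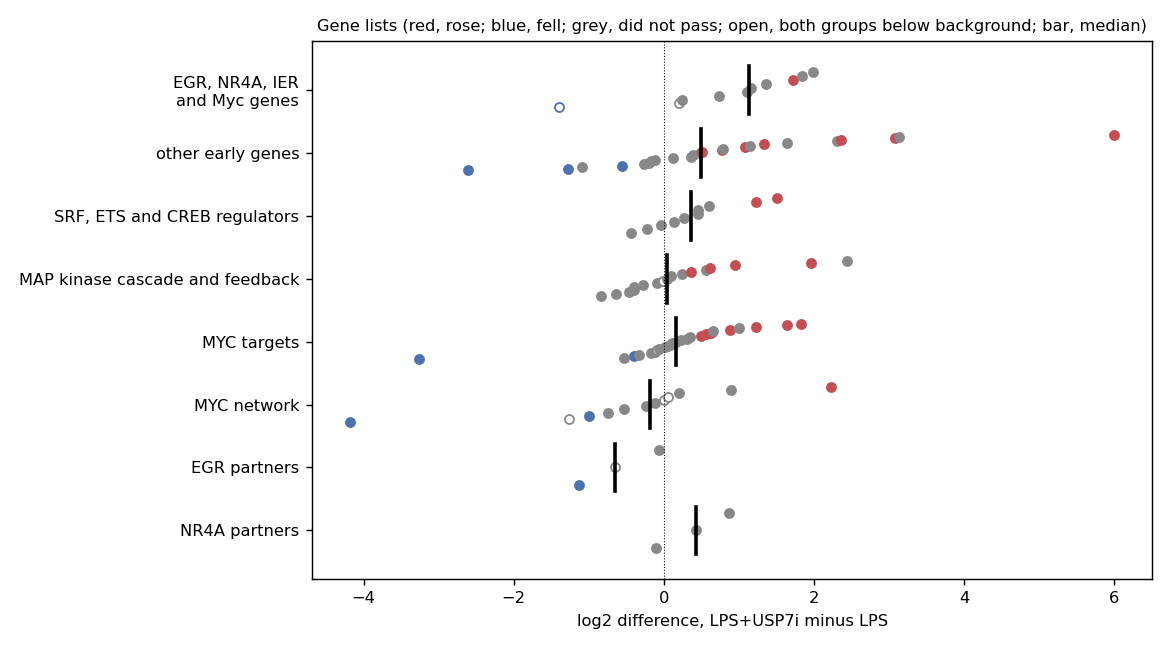
Difference LPS+USP7i minus LPS in log2 for each gene of each list, with a bar at the median of the list. Each point is 1 gene, and *Fosl1*, far to the right, was not well above background with LPS alone.

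Most macrophage markers were measured well. Of 10 macrophage markers, 9 were well above background on all arrays and *Cd163* on none. Their summed signal was 732497 and 724148 untreated, 725430 and 750299 after LPS, and 630460 and 590111 after LPS+USP7i, and *Csf1r* was the most abundant at 17.92. With LPS 1 rose and 2 fell, with the inhibitor 0 rose and 2 fell, and in LPS+USP7i minus untreated 0 rose and 1 fell by limma adjusted p, with medians of −0.18, −0.16 and −0.32. *Cd14* was 15.68 and 15.82, 17.41 and 17.47, and 15.99 and 16.26, with LPS highest and no overlap. *Cd14* rose with LPS by 1.69 (3.23-fold, adjusted p = 0.00518), also with any 1 array left out. It fell with the inhibitor by 1.31 (2.48-fold, adjusted p = 0.0184), which did not pass without LPS replicate 1 (0.0721), LPS replicate 2 (0.0720) or either untreated array (0.0658).

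With LPS *Itgam* fell by 0.66 (adjusted p = 0.0233) and *Tlr4* by 0.80 (0.0305). *Itgam* did not pass without LPS replicate 1 (0.103), LPS replicate 2 (0.0809), untreated replicate 1 (0.0989) or untreated replicate 2 (0.118), was −0.22 with 75th percentile scaling, and its other probe gave −0.48 (0.228), in a range from 0.00351 to 0.228 over all alternatives. *Tlr4* did not pass without LPS replicate 1 (0.118), LPS replicate 2 (0.117), untreated replicate 1 (0.135) or untreated replicate 2 (0.108), and its other probe gave 0.01. *Fcgr1* fell with the inhibitor by 1.60 (3.04-fold, adjusted p = 0.0317) and by 1.26 against untreated cells (0.0374), a fall that did not pass without either LPS array (0.0821), LPS+USP7i replicate 1 (0.130), LPS+USP7i replicate 2 (0.126), untreated replicate 1 (0.0798) or untreated replicate 2 (0.0540). Its fall with the inhibitor did not pass without LPS replicate 1 (0.121), LPS replicate 2 (0.0908), LPS+USP7i replicate 1 (0.117), LPS+USP7i replicate 2 (0.0913) or either untreated array (0.0593).

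Markers of other cells were mostly dim. Of 5 T and NK cell markers 1 was well above background on all arrays (*Cd3e*, 9.21, the most abundant), and *Cd3g* and *Cd8a* were on none. Their sums were 693, 598, 691, 623, 787 and 743 over the arrays in the order of groups used above, and 0 rose or fell by limma adjusted p. Of 5 B cell markers 2 were above on all arrays, with *Cd79b* the most abundant at 9.45 and sums of 1057, 668, 1153, 533, 715 and 315, higher in replicate 1 of each group. By sign 4 were positive and 1 negative with LPS (median 0.72), and 1 positive and 4 negative with the inhibitor (−0.75). *Pax5*, the positive one, rose by 1.0 (at least 1.39-fold, adjusted p = 0.0244), and its other probe gave 0.06 (0.639), in a range from 0.00837 to 0.639 over all alternatives. *Pax5* did not pass without LPS replicate 1 (0.0807), LPS replicate 2 (0.0872), LPS+USP7i replicate 1 (0.0537), LPS+USP7i replicate 2 (0.0538) or either untreated array (0.0732).

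Of 6 neutrophil markers 4 were above background on all arrays, with *Elane* the most abundant at 11.64, sums of 4460, 4245, 4144, 4253, 4541 and 4784, and 0 that rose or fell by limma adjusted p. By sign 5 were positive and 1 negative with LPS (median 0.41), and 1 positive and 5 negative with the inhibitor (−0.65). Of 4 dendritic cell markers 1 was above on all arrays (*Siglech*), and *Flt3* and *Xcr1* were on none, with sums of 45042, 38053, 25331, 24853, 51407 and 34656. *Siglech* was 15.46 and 15.21 untreated, 14.62 and 14.59 after LPS, and 15.65 and 15.08 after LPS+USP7i, lowest with LPS, with differences of −0.73 (adjusted p = 0.122) and 0.75 (0.149). It was the 1 of the 4 with these signs, since 3 were positive with LPS (list median 0.71) and 3 negative with the inhibitor (−0.65). *Zbtb46* rose with LPS by 2.50 (at least 5.65-fold, adjusted p = 0.00435). Its other probe gave 1.80 (adjusted p = 0.171), and over all alternatives the difference ran from 0.90 to 2.65 and the adjusted p from 0.000557 to 0.171. Of 5 fibroblast markers 0 were above on all arrays, with sums of 60.1, 63.7, 110, 79.6, 92.3 and 64.8 and *Dcn* the most abundant. Of 5 mast cell and erythroid markers 4 were found and 0 of those were above on all arrays, with sums of 34.4, 23.0, 63.3, 24.0, 45.9 and 18.2 and *Cpa3* the most abundant. The part of other cells in the levels of the members was not tested.

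Genes near to each measured member in pattern over the 6 arrays were sought among 11651 names, by root mean square (RMS) distance in log2 after each gene was centered. They were *Ncbp3* (0.286), *Rmrp* (0.304) and *Fosb* (0.315) for *Egr1*, and *Slc25a30* (0.134) and *Mindy1* (0.165) for *Egr2*. For *Nr4a1* they were *1700066B19Rik* (0.167), *Rita1* (0.169) and *Akap8l* (0.170), and for *Nr4a2* *Prrg4* (0.138), *Osm* (0.149) and *Fem1c* (0.165). For *Ier2* they were *Trib1* (0.179), *Sdc1* (0.223) and *Barx2* (0.228), for *Ier3* *Dgat2* (0.315), *Odc1* (0.339) and *Gm15645* (0.350), for *Ier5* *Zfp462* (0.073), *Mss51* (0.104) and *Sfn* (0.115), and for *Myc* *Tollip* (0.240), *Rasd2* (0.242) and *Gcm1* (0.263). With 6 arrays such lists depend on single values.

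*Usp7*, the gene of the inhibited enzyme, was 11.95 and 11.98 in untreated BMDMs, 12.41 and 12.40 after LPS, and 12.11 and 12.43 after LPS+USP7i. The untreated arrays were lowest, and the LPS and LPS+USP7i arrays overlapped. The differences were 0.44 (SE 0.13, adjusted p = 0.104), −0.14 (95% interval −0.49 to 0.21, adjusted p = 0.627) and 0.30 (adjusted p = 0.258).

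Limits apply to all of this. Each group had 2 arrays, and an exact permutation of 2 against 2 cannot go below a two-sided p of 0.333. All arrays lay on 1 slide, and slide position and treatment cannot be told apart. It is not stated whether cells without the inhibitor received its solvent. The labels give LPS at 100 ng/ul and the text of the series at 100 ng/ml. The methods give another age range for the mice than the labels. *Egr3* and *Nr4a3* were near background. RNA levels after 4 h say nothing of protein or of earlier times.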

How the data were processed

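The authors deposited scanner files from Feature Extraction 10.7.3.1 with spot intensity in arbitrary units, and one table of normalized log2 values. Their notes name limma. Here the processed signal of non-control spots was taken to log2 and quantile-normalized, outlier spots were left out, and spots of a probe were averaged. A linear model of all 6 arrays was fitted with limma 3.58.1 in R 4.3.3, and p values were adjusted by Benjamini-Hochberg over 55680 of 55681 probes. Residual df was 3 and prior df 1.05. Replicates correlated with r = 0.996, 0.993 and 0.991 over 20721 probes. No spot was saturated (0), and 27467, 27126, 25223, 25002, 26415 and 25290 of 59305 spots were well above background. Probe positions are from build mm9. Probes were matched to genes by accession (26756), file name (24462), symbol (3824) or synonym (639).

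Named genes were all members, all EGR and NR4A partners, and from each longer list up to 3 genes that rose and 3 that fell most in the first and second comparisons by size of difference. Levels were also given for a few genes of interest. Members and lists were chosen with earlier results of these data known. The limma fit for LPS+USP7i minus LPS was tested on simulated data, with changes larger than any member's difference in that comparison.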

Additional observations from a re-analysis of the deposited data

How the results depend on the processing

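Each result was repeated under other choices. Some alternatives leave a value as it was by construction, such as another probe for a gene of 1 probe, or a call rule. Without these there were 426 values of members, of which 335 kept their reading, 42 were stronger, 32 weaker and 17 had the other sign. In 60 of the 426 the array left out was from the group not compared, which leaves the difference unchanged. With 1 array left out, a lone array is assumed to vary like the other groups. Alternatives for list genes were added after seeing the data. The cause of each shift was not tested.

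Members that passed numbered 2 in each comparison. For LPS minus untreated they were 5 with 75th percentile scaling, 4 with dim probes left out, 4 with a fit of the 2 groups compared, 4 with normexp and 4 with a trended prior, and 1 to 4 with an array left out. For LPS+USP7i minus LPS they were 0 with a fit of the 2 groups (limma, 3 unadjusted), 4 with normexp and 1 with a replicate block, where *Egr2* did not pass (0.0678), and 0 to 2 with an array left out. For LPS+USP7i minus untreated they were 6 with 75th percentile scaling, 4 with deposited values, 5 with dim probes left out, 0 with a fit of the 2 groups (limma, 4 unadjusted), 1 with the mean of probes and 5 with normexp, and 0 to 2 with an array left out.

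All gene names called, LPS minus untreated, numbered 16198 with 75th percentile scaling and 4238 with a log2 difference of at least 1, and 2782 to 6609 with an array left out. All gene names called, LPS+USP7i minus LPS, numbered 5134 with dim probes left out, 0 with a fit of the 2 groups compared (limma, 8004 unadjusted), 5257 with normexp and 2097 with a difference of at least 1, and 0 to 3092 with an array left out. All gene names called, LPS+USP7i minus untreated, numbered 15536 with 75th percentile scaling, 3301 with a fit of the 2 groups and 2998 with a difference of at least 1, and 1037 to 3860 with an array left out. With a replicate block they numbered 7638, 2549 and 5488. Differences between replicate numbers correlated with r = 0.47, 0.40 and 0.42 between groups, from 2 replicate numbers only.

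Signs differed as follows. LPS minus untreated: *Ier5* was −0.40 with the mean of probes and −1.12 with the second probe, *Egr1* −0.047 without untreated replicate 2 and 0.92 without untreated replicate 1, and *Nr4a2* −0.87 with the second probe. LPS+USP7i minus LPS: *Egr3* was −0.00088 with normexp and *Ier2* −0.49 without LPS+USP7i replicate 1 and 0.96 without replicate 2. LPS+USP7i minus untreated: *Egr2* was −0.019 with deposited values, −0.045 without LPS+USP7i replicate 1, −0.31 without untreated replicate 1 and 0.38 without untreated replicate 2, *Egr3* was 0.027 with deposited values, and *Nr4a3* was −0.029 with deposited values, −0.0066 with normexp and −0.072 with outlier spots kept. There *Ier2* was −0.095 without LPS+USP7i replicate 1 and 1.35 without replicate 2, *Nr4a1* was 0.18 without LPS+USP7i replicate 2 and −1.07 without replicate 1, and the second probes of *Nr4a2* and *Ier5* gave −0.38 and −1.04. By its second probe alone, *Nr4a2* turned to 0.83 in LPS minus untreated and 1.32 in LPS+USP7i minus untreated without untreated replicate 2, and *Ier5* in LPS+USP7i minus LPS turned from 0.07 to −0.05 without LPS replicate 2 and −0.04 without LPS+USP7i replicate 1. Of list genes in LPS minus untreated, second probes gave −1.12 for *Creb1*, 1.47 for *Mrtfb*, 0.027 for *Elk3* and 0.0064 for *Tlr4*.

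Of 35 list results for LPS minus untreated, 160 of 210 fits with an array left out passed, and 19 genes passed in all. Of 23 for LPS+USP7i minus LPS, 39 of 138 fits passed. Without either untreated array, and with a fit of the 2 groups, 0 names of the whole array passed (limma, 8004 unadjusted), so no list gene could. Over the other 4 fits 39 of 92 passed, and 4 genes passed in all 4 (*Atf1*, *Ccnd2*, *Dusp2* and *Fosl1*). With a replicate block 14 of the 23 passed. Of 6 for LPS+USP7i minus untreated, 15 of 36 fits passed.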
